A study of Homo sapiens with 39 samples.

Results

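The RNAs described here are the 100 antisense-named genes with the largest summed counts over 24 polysome libraries of human bronchial epithelial cells. They were chosen by those sums from 971 gene IDs whose names start with LINC and a digit or end in -AS1, -AS2 or -AS3, among 21530 genes in the table. None of the 971 IDs started with LINC and a digit, so all 100 carry antisense names, 95 ending in -AS1, 4 in -AS2 and 1 in -AS3. The sums ran from 386832 counts for LRRC75A-AS1 to 3096 for BOLA3-AS1 and 3070 for SRP14-AS1, and the first IDs left out were RPARP-AS1 with 3058 and CARD8-AS1 with 3049. The sums selected the members and are given as a description. Together the 100 held 0.744% of all polysome counts and 82.3% of the counts of the 971 IDs. The label was only partly borne out by the reference gene table, which matched all 100 and classes 94 as long noncoding RNA, 3 as protein-coding and 3 as transcribed pseudogenes.

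The study, by its title, concerns a role of the splicing factor U2AF1 in translation, apart from splicing. Polysome gradients and RNA immunoprecipitation (RIP) used 3 lines of HBEC, cultured human bronchial epithelial cells: a line with the U2AF1 S34F mutation, a line labelled frame shift in U2AF1 (FS) and a wild-type line (WT). Each line gave 8 gradient libraries, from monosomes, from fractions of 2 to 7 ribosomes and from a pooled fraction of 8 to 10, and 3 RIP libraries: a U2AF1 precipitate (IP), a control precipitate (IgG) and cytosolic RNA (Cytosol). The PAR-CLIP assay reads sites of protein contact from T-to-C changes in crosslinked RNA. Its cells were Flp-In-293, which derive from the HEK 293 line and here made U2AF1 with a FLAG-HA tag. It covered S34F protein from cytoplasm, WT protein from cytoplasm and WT protein from chromatin, with replicates A and B merged in each cluster list. The labels do not say which alleles the S34F and FS lines carry, whether a line is 1 clone, or whether the Flp-In-293 cells kept their own U2AF1. The labels give no treatment for the HBEC lines, which grew in keratinocyte serum-free medium.

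An antisense RNA is transcribed from the strand opposite to a neighbouring gene, often from a shared promoter, and takes that gene's name. Most such RNAs are spliced and polyadenylated like mRNAs, and many stay in the nucleus while others reach ribosomes, where short open reading frames may be read. U2AF1 is the small subunit of the U2AF dimer: its large partner U2AF2 binds the polypyrimidine tract at the end of an intron, and U2AF1 reads the AG that follows. Some members are host genes, whose introns give small nucleolar RNAs (snoRNAs) and whose spliced exons are exported.

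Polysome libraries held 2440145 to 13367574 counts and RIP libraries 2582141 to 29769968 counts, so a count of 0 allowed up to 0.224 to 1.23 CPM (counts scaled to the same library total) and 0.101 to 1.16 CPM. These limits cover counting error only. The 8 basal epithelial markers summed to 23098 CPM in S34F Cytosol, 13316 in FS and 12570 in WT, while the 5 fibroblast markers summed to 7.24 to 11.1 CPM and the endothelial, leukocyte and ciliated or secretory lists to 1.58 CPM at most. In the gradients the 4 leukocyte markers summed to a mean of 58.2 to 90.7 CPM over the fractions. U2AF1 mRNA stood at 21.4 CPM in S34F, 54.7 in FS and 53.9 in WT Cytosol. Each line gave 1 library of every kind, and the fit took out each line's constant level (line as block). The p-values thus measure how unevenly the lines changed between kinds of library, with spread estimated over all libraries of an assay. Any effect of genotype on such a change is part of that spread, and no difference between lines was tested. Use of strand in the counting is not given in the sources used here, so reads of a member and of the gene it lies opposite cannot be told apart.

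U2AF1 contacts were listed on 23 of the 100 RNAs, mostly on a few of them. The share of all genes with a listed cluster was not counted, so this number cannot be read as high or low. When clusters were matched by the gene name as listed, the S34F cytoplasmic list held 33 clusters on 14 members, the WT cytoplasmic list 15 clusters on 9 and the WT chromatin list 28 clusters on 10. These lists held 28828, 26613 and 92895 clusters in all, so members took 11.4, 5.64 and 3.01 of every 10000. The lists use older names for some members, and a match through all known symbols raised the counts to 36, 23 and 58 clusters. LRRC75A-AS1, now named SNHG29 and listed as C17orf76-AS1, accounted for most of the gain. Replicates were pooled in each list, so differences between lists have no replicate check, and the text below uses the match through all symbols.

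LRRC75A-AS1, a snoRNA host on chromosome 17, carried the most PAR-CLIP reads of any member. It had 30 clusters with 1387 reads in the WT chromatin list, 7 clusters with 166 reads in the WT cytoplasmic list and 2 clusters with 19 reads in the S34F cytoplasmic list. CDKN2B-AS1, also known as ANRIL, which lies opposite the CDKN2B tumour suppressor gene, had 9 clusters with 269 reads in chromatin, 2 with 12 reads for WT protein in cytoplasm and 2 with 11 reads for S34F protein. OIP5-AS1, the vertebrate cyrano RNA known for pairing with miR-7, had 3 clusters with 157 reads in chromatin, 3 with 61 reads for WT protein in cytoplasm and 5 with 54 reads for S34F protein. ENTPD1-AS1 had 5 clusters with 112 reads in chromatin, 1 with 7 reads for WT protein in cytoplasm and 8 with 45 reads for S34F protein. These 4 were the members with a cluster in all 3 lists. GABPB1-AS1 (5 clusters) and TP73-AS1 (4) had clusters in chromatin and for S34F protein, EPB41L4A-AS1 had 3 in the WT lists, and RNF139-AS1 had 1 cluster of 50 reads in chromatin. The list of S34F protein thus held more clusters than the WT cytoplasmic list on OIP5-AS1 and ENTPD1-AS1 and fewer on LRRC75A-AS1, in counts that were not tested.

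Several clusters contain the sequence that the U2AF dimer reads at a 3-prime splice site, and they are shown for that reason. Capitals mark a CAG or TAG together with the 10 bases before it, of which at least 8 are T or C, searched on the listed strand only. Positions and sequences are as listed, on a build that no source used here names. Clusters were matched by name and not by position. The GABPB1-AS1 cluster and the OIP5-AS1 cluster for S34F protein lie past the ends that the RIP data list, if the builds match. The first 5 come from WT protein in chromatin, the next 2 from WT protein in cytoplasm and the last from S34F protein in cytoplasm.
OIP5-AS1 chr15:41578193-41578214, 92 reads: ttcTTTTTCTTTTTAGgttcct
CDKN2B-AS1 chr9:22053795-22053827, 53 reads: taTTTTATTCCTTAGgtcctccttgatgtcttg
GABPB1-AS1 chr15:50656297-50656336, 54 reads: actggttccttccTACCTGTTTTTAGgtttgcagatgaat
ENTPD1-AS1 chr10:97660620-97660646, 59 reads: aAGTCTTCCTCTAGatggaactcttct
LRRC75A-AS1 chr17:16345275-16345298, 31 reads: TTTTTTCATGCAGttaccatgaac
CDKN2B-AS1 chr9:22078263-22078286, 7 reads: aatTTTTTTTTTTCAGattttggt
ENTPD1-AS1 chr10:97827071-97827092, 7 reads: aaaTTTGTTTTTCTAGgtggct
OIP5-AS1 chr15:41595393-41595436, 11 reads: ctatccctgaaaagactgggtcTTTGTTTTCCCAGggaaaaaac

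Such a tract with its AG stood in 9 of the 58 member clusters of the chromatin list (15.5%), against 14.7% of all its clusters. It stood in 3 of 36 member clusters (8.33%) for S34F protein in cytoplasm, against 13.2% of the whole list, and in 2 of 23 (8.7%) for WT protein in cytoplasm, against 10.2%. Members were thus near the share of their list in chromatin and in the WT cytoplasmic list, from few clusters. The OIP5-AS1 cluster of 92 reads is classed in the list as crossing from intron to exon, with a listed T-to-C fraction of 1. The GABPB1-AS1 cluster also had a fraction of 1, with 23 conversion events.

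On LRRC75A-AS1 the chromatin clusters of 172, 153, 148 and 121 reads had no such tract, and some of its clusters lay in its snoRNAs. A chromatin cluster of 102 reads, classed as crossing from intron to exon, did have a tract with its AG. Shown here are the clusters of 172 and 153 reads and the largest of the WT cytoplasmic list, in lower case since no tract was found. The first, with 172 reads, is classed as intronic in chromatin, and the next, with 153 reads, as snoRNA in chromatin. The last, with 70 reads, is classed as snoRNA in the WT cytoplasmic list.
LRRC75A-AS1 chr17:16344667-16344730: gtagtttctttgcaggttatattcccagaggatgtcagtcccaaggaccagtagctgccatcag
LRRC75A-AS1 chr17:16344548-16344583: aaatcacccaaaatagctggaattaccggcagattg
LRRC75A-AS1 chr17:16342812-16342839: attcgactgtcctgatgatacttgtaat

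Of the 30 chromatin clusters of LRRC75A-AS1, 4 were classed as snoRNA, as were 2 of its 7 clusters for WT protein in cytoplasm and 0 of 2 for S34F protein. The snoRNA cluster of 70 reads had a T-to-C fraction of 0.186, and that of 153 reads had 0.266, while the median over all clusters was 0.837 in the WT cytoplasmic list and 1 in the chromatin list. The intronic cluster of 172 reads had 0.834. AQP4-AS1, named for a water channel gene, had its clusters outside the bounds that the RIP data list for it, if the builds match, which was not tested. It had 22 reads in 1 cluster of the WT cytoplasmic list and 11 reads in 1 cluster of the S34F list. Its first 17 listed bases in the S34F list, gcttctcggccttttgg at chr18:24278056-24278080, occurred in 3 clusters of that list and in 2 of the WT cytoplasmic list, on as many chromosomes, so its reads may be shared between copies and its place is uncertain.

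**Figure D1:**
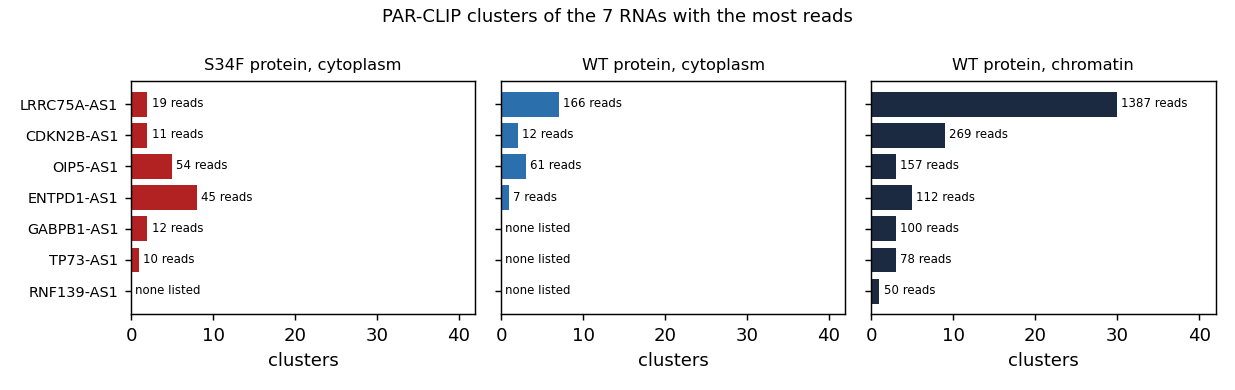
PAR-CLIP clusters of the 7 members with the most reads, matched through all known symbols; bars give the number of clusters (x axis) per RNA (y axis) in each of the 3 lists, and the text beside a bar gives reads. LRRC75A-AS1 has 30 clusters and 1387 reads in chromatin, and GABPB1-AS1, TP73-AS1 and RNF139-AS1 have none listed for WT protein in cytoplasm.

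In the RIP libraries, no member passed the test in any comparison, though a few stood on the same side in all 3 lines. Of the 100, 55 had enough counts to be tested. On simulated data the edgeR fit recovered 46.7% of changes of log2 size 4 in IP against IgG, so uncalled members may still differ. In IP against IgG, edgeR's quasi-likelihood test called 0 of 55 at an adjusted p under 0.05 (1.34% of all genes tested were called), with 3 members higher and 3 lower at an unadjusted p under 0.05 (12.9% of all genes in either direction). DESeq2 called 1 higher and 3 lower (5.74% of all genes), so both counts were near the share over all genes. In IP against Cytosol, edgeR called 0 of 55 (0.534% of all genes), with 2 higher and 0 lower before adjustment (7.33% of all genes), and DESeq2 called 0 (1.44% of all genes). In IgG against Cytosol, edgeR called 0 of 55 (0.68% of all genes), with 3 higher and 2 lower before adjustment (7.31% of all genes), and DESeq2 called 1 higher (1.92% of all genes).

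FGD5-AS1, an antisense RNA studied in several tumour types, was the member most evenly above IgG. It had 56.5 CPM in S34F IP, 56.7 in FS IP and 54.2 in WT IP, against 25.3, 16.5 and 9.3 CPM in the IgG libraries of S34F, FS and WT. Every IP value was above every IgG value. The log2 fold change was 1.65 ± 0.48 (SE) with an adjusted p of 0.132 in edgeR and 0.013 in DESeq2. Its Cytosol values were 53.2, 37 and 31.5 CPM in S34F, FS and WT, and the log2 fold change of IP over Cytosol was 0.49 ± 0.46 (adjusted p = 0.902, edgeR).

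TP73-AS1, which the reference table lists as the transcribed pseudogene GFOD3P and which lies beside the p53 relative TP73, went the other way. It had 3.87 CPM in S34F IP, 31 in FS IP and 45.6 in WT IP, against 45.2, 74.2 and 112 CPM in the IgG libraries of S34F, FS and WT. IP was below IgG in 3 of 3 lines, though the groups touch, since WT IP lies above S34F IgG. The log2 fold change was -1.98 ± 0.53 (SE), with an adjusted p of 0.0863 in edgeR, 0.00486 in DESeq2 and 0.0397 in edgeR without the genes that have isolated zeros. CKMT2-AS1 and SLC25A25-AS1, the other members that DESeq2 called lower, had 0.578 to 2.32 CPM in IP, against 7.41 to 34 CPM in IgG. Their groups do not overlap, but edgeR gave adjusted p-values of 0.167 for CKMT2-AS1 (-4.03 ± 1.26) and 0.235 for SLC25A25-AS1 (-4.19 ± 1.5).

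LRRC75A-AS1 was the best-counted member here too. It had 1454, 1173 and 1171 CPM in the IP libraries of S34F, FS and WT, against 1226, 739 and 689 CPM in IgG and 1168, 865 and 870 CPM in Cytosol. IP was the highest of the 3 kinds in each line, by a log2 fold change over IgG of 0.38 ± 0.15 (SE; adjusted p = 0.297, edgeR). Per kilobase of its listed length, Cytosol held 475, 352 and 354 CPM per kb of this RNA in S34F, FS and WT. MMP24-AS1 was next among members, with 81.3, 74.5 and 83.8 CPM per kb in S34F, FS and WT.

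**Figure D2:**
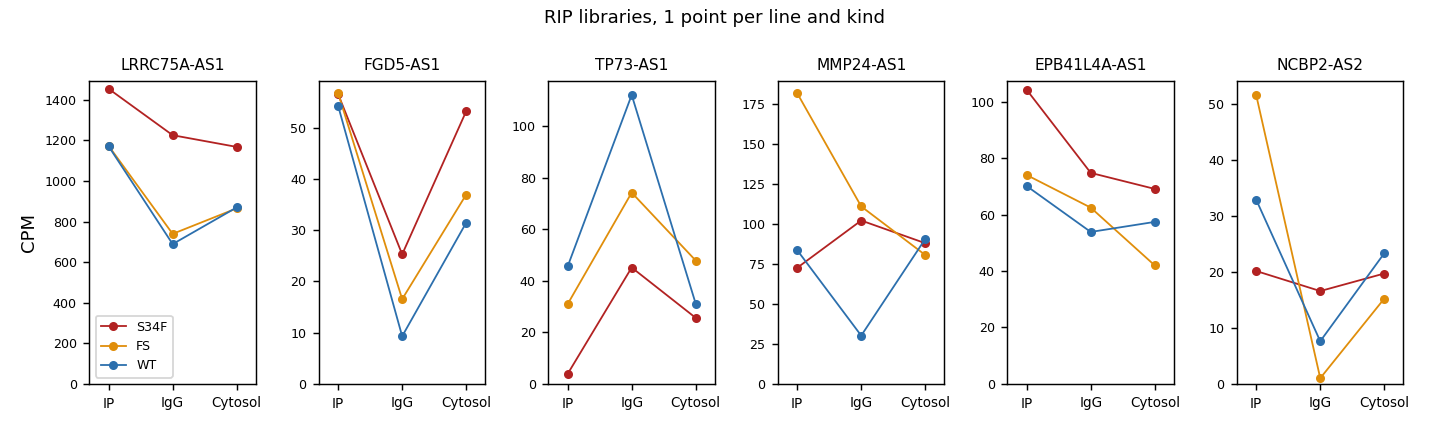
RIP levels of 6 members in CPM (y axis) in IP, IgG and Cytosol libraries (x axis), with 1 point per line and kind and lines joining the libraries of a line. FGD5-AS1 is higher in IP than in IgG in each line (56.5, 56.7 and 54.2 CPM against 25.3, 16.5 and 9.3), and TP73-AS1 is lower.

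Across the gradients, 87 of the 100 RNAs were lower in the 8-10 ribosome fraction than in monosomes (21.6% of all genes were lower), and 1 was higher (28.3% of all genes). All 88 moved the same way in each of the 3 lines. The median log2 fold change of members was -1.86, against 0.08 over all 15945 genes tested, and 96 of 100 members were below 0. Other noncoding RNAs set beside them gave like values: 7 of 9 tested nuclear RNAs were lower with a median of -1.87, and 16 of 20 cytosolic or snoRNA host RNAs were lower with a median of -1.91. The genes that the members are named for did not share this, with 13 lower and 28 higher of 93 tested and a median of 0.25. CPM sets every fraction to the same total, so these are shares of a fraction's RNA, not amounts.

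**Figure D3:**
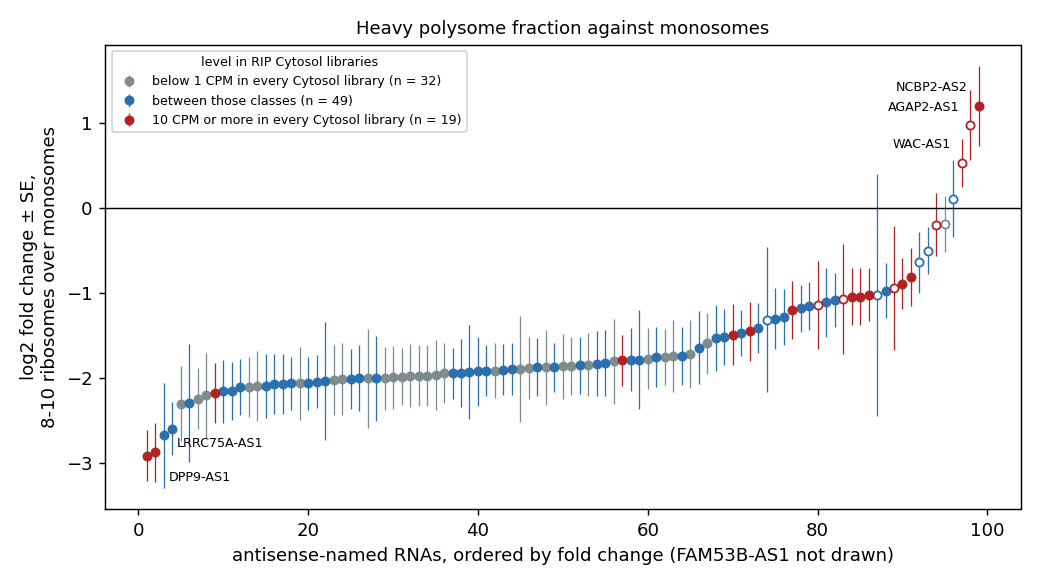
Log2 fold change of the 8-10 fraction over monosomes (y axis, ± SE from the fit) for 99 members in rising order (x axis); filled points passed an adjusted p of 0.05, open points did not, and colours give the level in the Cytosol libraries. Most points lie near -2, and NCBP2-AS2 is the filled point above 0.

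LRRC75A-AS1 had 354, 177 and 332 CPM in the 8-10 fraction of S34F, FS and WT, against 2155, 1837 and 2665 CPM in their monosomes. The groups do not overlap, and the log2 fold change was -2.87 ± 0.35 (SE; adjusted p = 5.6e-06, edgeR). Its highest fraction was 5 ribosomes in S34F with 3623 CPM, and 3 ribosomes in FS with 3396 and in WT with 5682 CPM. LRRC75A itself was lower too, by a log2 fold change of -2.54 ± 0.64 (adjusted p = 0.00235, edgeR). DPP9-AS1, named for a dipeptidyl peptidase gene, had 4.59, 4.38 and 5.6 CPM in the 8-10 fraction of S34F, FS and WT, against 65.3, 24.3 and 38.4 CPM in monosomes. Its log2 fold change was -2.91 ± 0.30 (adjusted p = 1.34e-06, edgeR), while DPP9 was at -0.23 ± 0.29 (adjusted p = 0.513). From 3 ribosomes on, DPP9-AS1 was below its monosome level in each line, with highest values there of 26.7 CPM in S34F, 21.3 in FS and 26.1 in WT. At 2 ribosomes it was above monosomes in FS (39.6 CPM) and WT (47.9 CPM) and below them in S34F (42.3 CPM).

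STARD7-AS1, beside a gene for a lipid carrier, had 2.43, 1.3 and 4.05 CPM in the 8-10 fraction of S34F, FS and WT, against 11.1, 11.8 and 29.5 CPM in monosomes, a log2 fold change of -2.59 ± 0.31 (adjusted p = 5.61e-06, edgeR). STARD7 went the other way, at 1.29 ± 0.28 (adjusted p = 0.000775). FAM53B-AS1 was listed at 0 in the 8-10 fraction of all 3 lines, against 63.4, 56.2 and 48.2 CPM in the monosomes of S34F, FS and WT. With 3 counts per library as the limit, it was at least 220-fold lower in S34F, 222-fold in FS and 121-fold in WT. This limit covers counting error only, and the listed counts jumped between neighbouring fractions. They were 153, 0 and 0 at 5, 6 and 7 ribosomes in S34F, and 213, 2 and 98 in WT. The other members with large changes were NUTM2B-AS1 (-2.67), KRT73-AS1 (-2.30), NEXN-AS1 (-2.29), AP4B1-AS1 (-2.24) and TBC1D22A-AS1 (-2.20, log2 fold changes in each case). NEXN-AS1 lost its call without the S34F line (-1.39, adjusted p = 0.14), as did UGDH-AS1 (-1.49, adjusted p = 0.0899) and CDKN2B-AS1 (-1.26, adjusted p = 0.0919).

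The size of the change varied among the best-counted members. UGDH-AS1, opposite a gene for a sugar nucleotide dehydrogenase, had 354, 673 and 772 CPM in the 8-10 fraction of S34F, FS and WT, against 2978, 2624 and 2222 CPM in monosomes. The groups do not overlap (-1.93 ± 0.55, adjusted p = 0.00575, edgeR), and UGDH itself was at 0.18 ± 0.29 (adjusted p = 0.603). FGD5-AS1 had 81.1, 56.5 and 31.2 CPM in the 8-10 fraction, against 111, 406 and 120 CPM in monosomes of the same lines (-1.49 ± 0.36, adjusted p = 0.00152). Its groups do not overlap either, though the S34F pair differs little, and the call was lost without the FS line (-1.0, adjusted p = 0.0621). FRMD6-AS1 was at -2.06 ± 0.43, RUNDC3A-AS1 at -1.87 ± 0.29, TP73-AS1 at -1.79 ± 0.30 and NOP14-AS1 at -1.02 ± 0.31, all called lower. Of the 5 members with the most PAR-CLIP reads, OIP5-AS1 was not called (-1.07 ± 0.65, adjusted p = 0.169). The others were lower, among them CDKN2B-AS1 at -1.64 ± 0.43, ENTPD1-AS1 at -1.94 ± 0.40 and GABPB1-AS1 at -1.85 ± 0.33. NNT-AS1, named for a mitochondrial transhydrogenase gene, was at -2.09 ± 0.41 and PTPRG-AS1 at -2.07 ± 0.35.

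NCBP2-AS2 was the member higher in the heavy fraction. The reference table classes it as protein-coding, under the symbol NCBP2AS2, and it lies beside NCBP2, a cap-binding subunit. It had 13.4, 13.2 and 27.9 CPM in the 8-10 fraction of S34F, FS and WT, against 7.74, 7.59 and 10.6 CPM in monosomes. The groups do not overlap, and the log2 fold change was 1.20 ± 0.47 (SE; adjusted p = 0.0359, edgeR). The call was lost without the FS line (1.28, adjusted p = 0.0535), without the WT line (0.89, adjusted p = 0.215) and without the line block (1.23, adjusted p = 0.111). NCBP2 mRNA rose by 1.77 ± 0.33 (adjusted p = 0.000212). The other protein-coding members lay below 0. MMP24-AS1 was at -0.94 ± 0.73 (adjusted p = 0.276), and at -1.11 (adjusted p = 0.0497) without the FS line, whose fraction of 4 ribosomes lists it at 0. FAM83H-AS1, now IQANK1, fell by 1.08 ± 0.32 on the log2 scale (adjusted p = 0.0072), a call lost without the S34F line (-0.71, adjusted p = 0.0971).

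Of the members that were not called, AGAP2-AS1 had 12.1, 19.1 and 22.3 CPM in the 8-10 fraction of S34F, FS and WT, against 13.1, 11.3 and 8.85 CPM in monosomes, which gave 0.97 ± 0.41 (adjusted p = 0.0534). It was called higher without the S34F line, without a filter on low counts and without genes that have isolated zeros. WAC-AS1 had 124, 89.9 and 45.1 CPM in the 8-10 fraction, against 65.6, 86.6 and 42.7 CPM in monosomes of the same lines (0.53 ± 0.28, adjusted p = 0.116). WAC mRNA fell, by 1.01 ± 0.32 on the log2 scale (adjusted p = 0.0111). PAX8-AS1, beside the transcription factor gene PAX8, was at -0.20 ± 0.37 (adjusted p = 0.655) and OIP5-AS1 at -1.07 ± 0.65 (adjusted p = 0.169), with OIP5-AS1 at 35.9, 1.59 and 16.3 CPM in the 8-10 fraction of S34F, FS and WT, against 59.7, 86.6 and 9.35 CPM in monosomes.

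At light polysomes few members were called, and the calls depended on single lines. In the mean of 2 and 3 ribosomes against monosomes, 7 members were higher (2.96% of all genes) and 0 lower (0.176% of all genes), with a median of -0.41 over members. Before adjustment, 13 were higher (13% of all genes) and 6 lower (4.45% of all genes) at p under 0.05 in edgeR, so these counts were near the share over all genes. DESeq2 called 10 higher (6.26% of all genes) and 1 lower (0.665% of all genes). NUP50-AS1, beside a nuclear pore gene, had 67.7, 43.6 and 51.5 CPM at 2 ribosomes and 48.8, 62.4 and 173 CPM at 3 in S34F, FS and WT, against 10.6, 12.2 and 31.4 CPM in monosomes. Its log2 fold change was 2.33 ± 0.35 (SE; adjusted p = 0.00185, edgeR), the largest of the 7. EPB41L4A-AS1, a snoRNA host, had 145, 71.4 and 179 CPM at 2 ribosomes and 126, 179 and 399 at 3, against 59.2, 41.3 and 92.4 CPM in monosomes of the same lines (1.66 ± 0.31, adjusted p = 0.00597). For NUP50-AS1 the groups do not overlap, while for EPB41L4A-AS1 the FS value at 2 ribosomes lies below WT monosomes. TLR8-AS1 (1.56), ARRDC1-AS1 (1.29), SCAMP1-AS1 (1.25), SVIL-AS1 (1.21) and UBA6-AS1 (1.08) were the others, in log2 fold change. The number moved with single lines: 0 members were called higher without the FS line (0 of 16618 genes), so all 7 calls were lost there. Without S34F, 3 were called (EPB41L4A-AS1, NUP50-AS1 and TLR8-AS1), beside 281 of 16560 genes. Without WT, 5 were called (310 of 15211 genes), and without the line block 0 (3 of 15945 genes). Of the RNAs set beside them, 4 of 20 cytosolic or snoRNA host RNAs were higher, among them the hosts SNHG5, SNHG6 and SNHG8, and 0 of 9 nuclear RNAs.

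Heavier polysomes again held less of most members. In the mean of 6 and 7 ribosomes against that of 2 and 3, 52 members were lower (12.8% of all genes) and 9 higher (20.8% of all genes), with a median log2 fold change of -0.71 against -0.04 over all genes. Of these 52 and 9 members, 50 in all moved the same way in each of the 3 lines. The count of lower members moved with single libraries: it was 12 without the WT line (498 of 15211 genes) and 26 without S34F (1268 of 16560 genes). It was 68 without FS (2315 of 16618 genes) and 30 without the WT fractions of 2 and 4 ribosomes (1509 of 16071 genes). The count over all genes thus moved in the same order. NCBP2-AS2 had 47.7, 20.3 and 18.9 CPM at 6 ribosomes and 43.3, 22.5 and 63.9 CPM at 7 in S34F, FS and WT, against 6.57, 7.11 and 9.84 CPM at 2 and 9.39, 8.15 and 13.7 CPM at 3. The groups do not overlap, and the log2 fold change was 2.09 ± 0.33 (SE; adjusted p = 4.78e-05, edgeR). AGAP2-AS1 had 49.3, 28.2 and 17.5 CPM at 6 ribosomes and 39.5, 25.3 and 42.1 CPM at 7, against 13.9, 8.98 and 6.97 CPM at 2 and 20.2, 15.4 and 13 CPM at 3 (1.52 ± 0.29, adjusted p = 0.000321). Its heavy and light values overlap between lines but not within a line. MAPKAPK5-AS1 (0.90), NOP14-AS1 (0.87), ZBED5-AS1 (0.83), TMEM147-AS1 (0.73), CTBP1-AS2 (0.67), DHRS4-AS1 (0.67) and PAX8-AS1 (0.67) were also higher. Of these 9, NCBP2-AS2, AGAP2-AS1 and MAPKAPK5-AS1 kept their call without the WT line. The lower members were led by DPP9-AS1 (-1.52), TRIM52-AS1 (-1.48), EPB41L4A-AS1 (-1.46), NUP50-AS1 (-1.34) and STARD7-AS1 (-1.33).

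**Figure D4:**
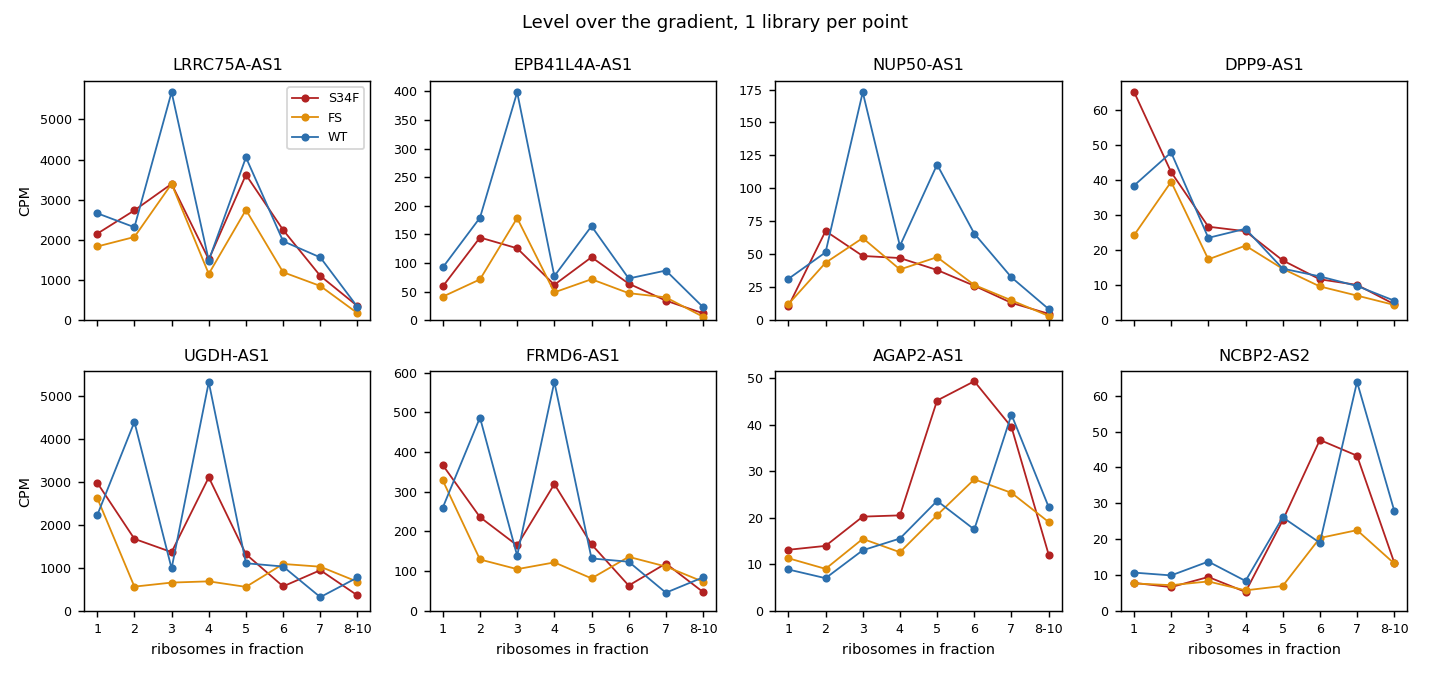
Level in CPM (y axis, each panel from 0) over the 8 gradient fractions (x axis, ribosomes per fraction) of 8 members, with 1 line per cell line and 1 library per point. NCBP2-AS2 and AGAP2-AS1 are highest at 6 or 7 ribosomes, EPB41L4A-AS1 and NUP50-AS1 at 2 or 3, and UGDH-AS1 and FRMD6-AS1 peak at 4 ribosomes in WT.

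A gradient index, the CPM-weighted mean of ribosomes per fraction with 9 for the pooled fraction, placed the members on 1 scale for 99 of them with at least 500 counts in each gradient. It is a relative position and not a number of ribosomes carried. The median over members was 3.59 in S34F, 3.88 in FS and 3.59 in WT, against 4.94, 4.82 and 4.76 over all 9501 genes. NCBP2-AS2 had the highest index of the members in each line, at 5.71 in S34F, 5.48 in FS and 5.84 in WT. AGAP2-AS1 came next in FS and WT, at 5.28 and 5.62, and had 5.10 in S34F, where THAP9-AS1 and WAC-AS1 lay between. At the low end DPP9-AS1 stood at 2.95, 3.33 and 3.23 and FAM53B-AS1 at 2.71, 3.48 and 3.09 in S34F, FS and WT. The protein-coding member MMP24-AS1 had 4.61, 4.80 and 4.72, near the median of all genes.

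Many members that were well counted in the gradients were hardly seen in the cytosolic RNA of the same lines. UGDH-AS1, with the next largest sum after LRRC75A-AS1, had 2978, 2624 and 2222 CPM in the monosomes of S34F, FS and WT, and 1.78, 0.84 and 1.58 CPM in Cytosol. FRMD6-AS1 had 367, 328 and 260 CPM in monosomes and 0.856, 0.269 and 0.339 CPM in Cytosol. Of the 100 members, 32 were below 1 CPM in all 3 Cytosol libraries and 19 at 10 CPM or more in all 3, classes that were set after these values were seen. Among genes with a mean of at least 20 CPM in monosomes, 36.8% of the 87 members and 5.86% of all 7412 genes were below 1 CPM in every Cytosol library. Members were chosen for large gradient sums, so this contrast draws on the values that selected them. It is given as a description. RIP Cytosol and gradient tables were normalized separately and were not tested against each other.

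These classes differed in their gradient profiles. Of the 32 members nearly missing from Cytosol, 31 were lower in the 8-10 fraction, with a median log2 fold change of -1.97 and quartiles of -2.01 and -1.86, and TLR8-AS1 was the exception at -0.19. The 402 other genes of this kind had a median of -1.94, and 392 of them were lower. Of the 19 members well seen in Cytosol, 12 were lower and 1 higher, with a median of -1.04, and 5 of the 7 members higher at 2 and 3 ribosomes were among them. Of the other 49 members, 44 were lower, with a median of -1.87. PAR-CLIP clusters were listed on 4 of the 32, on 7 of the 19 and on 12 of the 49. These counts have no share over all genes beside them, and the clusters come from Flp-In-293 cells, not from the HBEC lines that set the classes.

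The summed level of those 402 genes changed from library to library, and the members nearly missing from Cytosol moved with it. The 402 genes held 7211, 8702 and 9357 CPM in the 8-10 fraction of S34F, FS and WT, against 31836, 31634 and 24444 CPM in monosomes. The 32 members held 396, 586 and 643 CPM in the 8-10 fraction, against 2610, 2448 and 1996 CPM in monosomes. In WT the sum of the 402 genes reached 40001 CPM at 2 ribosomes and 44130 at 4, with 12619 at 3 and 12033 at 5, and the 32 members had 3341 and 3855 CPM at 2 and 4, with 993 and 960 at 3 and 5. In S34F the 402 genes also stood higher at 4 ribosomes, with 29103 CPM beside 16648 at 3 and 14244 at 5, and the 32 members had 2342 CPM at 4, beside 1309 and 1106 at 3 and 5. The WT libraries of 2 and 4 ribosomes and the S34F library of 4 thus lay above their neighbours for both sets. At 4 ribosomes, 24 of the 100 members had their highest S34F level and 68 their highest WT level. What raises this group of genes in some libraries, and its part in the counts above, was not tested. The count of members lower in the 8-10 fraction was 86 without these WT libraries and 87 with them. Neither library is among those compared there, so this count cannot show what part the group has in it.

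**Figure D5:**
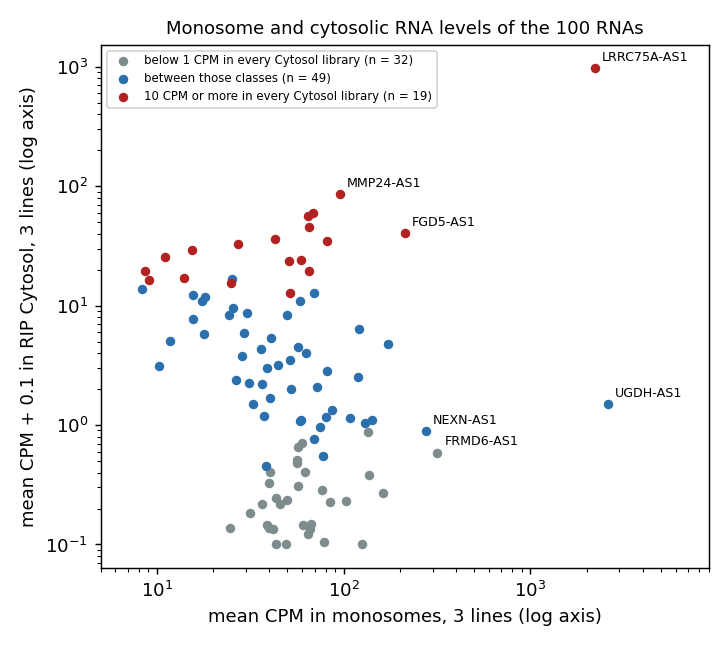
Mean CPM in monosomes (x axis, log) and mean CPM + 0.1 in Cytosol (y axis, log) over the 3 lines for the 100 members, coloured by Cytosol class. LRRC75A-AS1 is high on both axes, while UGDH-AS1, NEXN-AS1 and FRMD6-AS1 are high in monosomes and lie below 2 on the Cytosol axis.

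Most members had close mean levels in the 3 lines. The mean CPM over the 8 fractions was highest in WT for 72 members, in S34F for 14 and in FS for 14, and the highest line exceeded the next by a median of 1.17 times. No member reached 5 times, and 7 of 100 reached 2 times. Within WT, 68 members had their highest level at 4 ribosomes, 11 at 2 ribosomes and 0 in monosomes, so single libraries weigh on the WT means. The share of all genes highest in WT was not counted, so the 72 cannot be read as a trait of the members or of the line. FGD5-AS1 stood furthest apart, with a mean of 107 CPM in S34F, 356 in FS and 105 in WT, or 3.34 times the next line. In Cytosol it was at 53.2, 37 and 31.5 CPM in S34F, FS and WT, so the FS excess of the gradients was not seen there. OIP5-AS1 also had its highest gradient mean in FS, at 112 CPM against 53.4 in S34F and 48.1 in WT. NUP50-AS1 (67.1 CPM in WT, with 32.1 in S34F and 31.2 in FS) and STARD7-AS1 (34.3 CPM in WT, with 12.1 in S34F and 14.3 in FS) were highest in WT. With 1 library per line and fraction these are values without a test.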

How the data were processed

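The authors deposited expected counts for each gene in the polysome and RIP tables, in which 57.5% of polysome and 26.3% of RIP values were not whole (tolerance 1e-06). For each PAR-CLIP cluster the authors give read counts, conversion counts and the fraction of T read as C, per the file headers, with both replicates pooled per the series design text. TopHat is named in the submitters' processing notes without a version; counter, strand, annotation, cluster caller and build are not given in the sources used here. Starts in the RIP tables matched GRCh38 for 0.669% of genes, so positions are printed only for clusters, as listed.

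Counts were rounded and fitted with edgeR 4.0.16 in R 4.3.3 (filterByExpr, TMM, quasi-likelihood, Benjamini-Hochberg over all genes tested, threshold 0.05; limma 3.58.1 loaded), with line as block, since libraries of 1 line share their cells: 9 RIP libraries and 11612 genes, 24 polysome libraries and 15945 genes. Deviations from group means correlated between libraries of a line at a median r of 0.0643 in RIP and 0.346 in the gradients. DESeq2 1.42.0 and other settings were alternatives. The fit was tested on simulated data. For IP against IgG it recovered 0% of changes of log2 size 1, 4.29% of size 2 and 46.7% of size 4, with 0 false calls. For the 8-10 fraction against monosomes it recovered 12.9%, 85.7% and 100% of the same sizes, with 3 false calls. Symbols repeated in a table were used once, by the first entry kept. The reference gene table (GRCh38.p14) matched 100 members, 24 by synonym. The 10 members with the largest sums, the largest changes per comparison, the most PAR-CLIP reads, and fixed lists of host, well-studied and protein-coding members could be named. Members and lists were chosen with earlier results of these data known. RNAs with LINC names were not analysed here. 1 member is not reported by name here.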

Additional observations from a re-analysis of the deposited data

Results flagged for a closer look

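For 5 members, 1 line moved up by a log2 ratio of at least 1 and another moved down by as much in the same comparison. With 1 library per line and fraction, these differences were not tested. Values are log2 ratios of CPM + 0.5 within a line. For the 8-10 fraction over monosomes, ZNF561-AS1 was at 1.38 in S34F, -0.93 in FS and -1.48 in WT, THAP9-AS1 at 1.31, -0.40 and -1.45, and CRYM-AS1 at 1.17, -1.79 and -1.98 in the same lines. For 2 and 3 ribosomes over monosomes, ZNF561-AS1 was at 3.82 in S34F, -1.68 in FS and -4.49 in WT. It was listed at 0 in FS fractions 3 and 4 and in WT fraction 2, beside 76.7 CPM in FS fraction 5. For 6 and 7 over 2 and 3 ribosomes, ARHGEF26-AS1 was at -1.44 in S34F, 1.29 in FS and -1.51 in WT, KLHL6-AS1 at -1.45, 1.20 and -1.93, and CRYM-AS1 at 0.85, 1.61 and -3.26 in the same lines.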

How the results depend on the processing

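The count of members lower in the 8-10 fraction than in monosomes stayed between 75 and 88 under all alternatives, those without a line included. The count over all genes ran from 1939 of 16560 to 4098 of 15945. The 75 members and the 1939 genes came without S34F. The count higher was 1, with 3 without a filter on low counts (5421 of 21126 genes) and 2 without genes that have isolated zeros (4543 of 15826 genes). It was 0 without the replicate block (2739 of 15945 genes), and 0 to 2 when a line was left out (3140 to 3716 genes). At 2 and 3 ribosomes against monosomes, 7 members were higher, with 0 without the replicate block (3 of 15945 genes) and 0 to 5 when a line was left out (0 to 310 genes). With DESeq2, 1 was lower (NIPBL-AS1, with 106 of 15945 genes). It was also lower without the WT fractions of 2 and 4 ribosomes (77 of 16071 genes), an alternative chosen after seeing the data. At 6 and 7 against 2 and 3 ribosomes, 31 were lower and 5 higher without the replicate block, which pairs libraries by line, beside 52 and 9 with it. Of 15945 genes, 986 were lower and 2168 higher without it, beside 2036 and 3314 with it. When a line was left out, 12 to 68 members were lower (26 without S34F) and 3 to 6 higher, beside 498 to 2315 and 1887 to 2610 of all genes. Without the WT fractions of 2 and 4 ribosomes, 30 were lower (1509 of 16071 genes). In RIP, IP against IgG gave 1 member higher and 3 lower with DESeq2 (226 and 441 of 11612 genes). It gave 1 lower (TP73-AS1) both without a filter (281 of 18370 genes) and without isolated zeros (204 of 11553 genes). IgG against Cytosol gave 1 higher with DESeq2 (200 of 11612 genes). RIP counts of members without the replicate block were 0 in each comparison (0 to 60 genes per direction). Leaving out a line gave 0 to 0 (0 to 187 genes per direction). The cause of these changes was not tested. PAR-CLIP clusters on members numbered 7 for S34F protein in cytoplasm and 5 for WT protein when at least 10 reads were required and names matched as listed (33 and 15 without that minimum), and 23 and 58 for WT protein in cytoplasm and chromatin when other symbols were matched. RIP depth limits these comparisons: 45 members had too few counts to be tested, and the biological coefficient of variation was 69.8% there, against 32.9% in the gradients.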
